A study of Mus musculus with 15 samples.

Results

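The genes followed here are 9 Wnt target and effector genes: Axin2, Sp5, Lef1, Tcf7, Tcf7l1, Nkd1, Dkk1, Ctnnb1 and Cdx1. They were chosen by name, as the rows that carry one of these symbols, with earlier results of these data known. All 9 were found among the 55228 genes listed in every library. Expression was measured by RNA-seq in mouse embryonic stem cells (mESC) in which Smarcb1 can be knocked down, a gene whose product belongs to the core of the chromatin remodeller BAF.

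All 15 libraries come from the 81K1 line, which is based on OG2 cells and carries an anti-Smarcb1 shRNA cassette in the Rosa26 locus behind a doxycycline-dependent promoter. The knockdown (kd) groups received 1 µg doxycycline per ml of medium every day and were harvested at 48 h, 72 h and 240 h of induction, and the control (ctrl) groups at 48 h and 240 h carry the same cassette but had no doxycycline. Each of the 5 groups holds 3 libraries, and no label says whether these were separate cultures, so the p-values measure the spread between these libraries, which may be technical. The cells of all groups grew on gelatine-coated plates with serum and LIF, the line goes back to 1 clone, and no library comes from doxycycline-treated cells without the shRNA, so knockdown and doxycycline cannot be told apart. The 72 h kd group has no control of its own time and was compared with the 48 h ctrl group, so that the 48 h and 72 h comparisons share their control libraries.

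Library totals ranged from 11074998 to 14515300 reads. Smarcb1 was at 3.60 ± 0.290 FPKM (mean ± SD, n = 3) in 48 h ctrl and 3.42 ± 0.124 in 240 h ctrl, and at 0.647 ± 0.161, 0.564 ± 0.0662 and 0.660 ± 0.0531 FPKM in 48 h, 72 h and 240 h kd, so that the kd libraries held 18%, 15.7% and 19.3% of the control mean and did not overlap with the controls. FPKM stands for reads per kilobase of gene and scaled to the total reads of the library; here the length is the whole span of a gene with its introns, which makes the FPKM of a gene with long introns small. The 8 stem cell markers (Pou5f1, Sox2, Nanog, Zfp42, Esrrb, Utf1, Dppa5a and Tdgf1) summed to 2604 to 2708 FPKM in 72 h kd and to between 1621 and 2149 in the other 12 libraries. Dppa5a was at 1570 FPKM in 72 h kd against 765 in 48 h ctrl, while Zfp42 was lower in each kd group than in its control, at 43.1, 40.7 and 33.0 FPKM against 54.3 (48 h) and 49.5 (240 h). The 8 primitive streak and mesoderm markers together stayed at or under 1.72 FPKM and the 6 primitive endoderm markers at or under 0.804 FPKM. The share of mitochondrial reads was between 0.469% and 1.81% in 14 libraries and 2.35% in 48 h kd replicate 2.

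In canonical Wnt signalling a secreted Wnt ligand binds a Frizzled receptor and an LRP co-receptor, which halts the complex that otherwise marks β-catenin for destruction. β-catenin, the product of Ctnnb1, then enters the nucleus and binds the TCF/LEF factors on target genes. In mESC the pathway is known to favour self-renewal, and Tcf7l1 (also called TCF3) is known there as a repressor that β-catenin relieves. Axin2, Sp5, Lef1, Nkd1, Dkk1 and Cdx1 are widely used as readouts of the pathway, while Tcf7, Tcf7l1, Lef1 and Ctnnb1 encode its nuclear effectors.

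Axin2, Sp5 and Lef1 moved together after the knockdown, and their upstream sequences are shown for this reason. The sequences are the 250 bases before the RefSeq start of the gene (GRCm38.p6, all on the plus strand), written 5′ to 3′ in lower case, with CTTTGAT, the core to which TCF/LEF factors are known to bind, in capitals. Both CTTTGAT and the variant CTTTGAA were searched on both strands. The windows lie at chr2:70474673-70474922 for Sp5, chr11:108920099-108920348 for Axin2 and chr3:131110047-131110296 for Lef1, whose first of 4 listed starts is shown.
Sp5: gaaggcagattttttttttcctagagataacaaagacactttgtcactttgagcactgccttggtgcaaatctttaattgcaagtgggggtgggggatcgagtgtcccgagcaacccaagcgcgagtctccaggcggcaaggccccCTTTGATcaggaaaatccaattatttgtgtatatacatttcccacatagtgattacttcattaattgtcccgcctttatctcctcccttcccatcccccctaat
Axin2: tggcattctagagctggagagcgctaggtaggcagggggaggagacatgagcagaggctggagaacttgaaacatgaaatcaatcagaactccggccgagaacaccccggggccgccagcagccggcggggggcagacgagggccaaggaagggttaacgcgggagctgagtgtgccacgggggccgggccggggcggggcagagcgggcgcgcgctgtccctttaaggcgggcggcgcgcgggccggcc
Lef1: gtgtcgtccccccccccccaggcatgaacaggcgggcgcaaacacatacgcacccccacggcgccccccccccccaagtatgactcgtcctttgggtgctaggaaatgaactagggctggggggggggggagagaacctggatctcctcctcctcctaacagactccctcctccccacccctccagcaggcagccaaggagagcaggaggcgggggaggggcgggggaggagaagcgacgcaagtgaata
Sp5 holds the CTTTGAT core with its first base 104 bases before the start, while the Axin2 window and the 4 Lef1 windows hold neither sequence. Among the other members with a listed window, Dkk1 holds CTTTGAA, beginning 117 bases before its start, and Tcf7, Tcf7l1, Nkd1 and Ctnnb1 hold neither. RefSeq starts can differ from the ends of the gene spans given below. The windows of Tcf7, Nkd1 and Ctnnb1 and the later Lef1 windows lie inside these spans, and those of Dkk1 and Tcf7l1 in part. Of all 32851 listed windows, 3.21% hold CTTTGAT and 4.46% hold CTTTGAA. A match is a description of these letters and no evidence of binding, and a window without one says nothing about sites elsewhere.

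Changes were tested with limma on log2(FPKM + 0.1), two-sided, in genes that averaged 10 or more reads over the compared libraries, and a gene was called when its Benjamini-Hochberg adjusted p-value over all tested genes was under 0.05 and its log2 fold change was beyond 0.58 in either direction. At 48 h, 7 of the 9 members could be tested and 2 were called, Sp5 and Lef1, both lower, while 2.35% of all tested genes were called lower and 2.12% higher. At 72 h, 8 were tested and 3 were called, Axin2, Sp5 and Lef1, all lower, against 5.61% of all tested genes called lower and 8.11% called higher. Centring each library on its median turned the 1309 higher and 906 lower calls of this comparison into 1067 higher and 1157 lower, and left the 3 members called. At 240 h, the same 3 members of 8 tested were called lower, against 4.75% lower and 5.21% higher over all genes. Limma called no member higher in these 3 comparisons, while limma voom on reads, used as an alternative, called Nkd1 higher at 72 h. In the comparison of both control groups, where 0.413% of all genes were called, limma called 0 of 8 members, and 3 had an unadjusted p under 0.05; limma voom on reads called 0 as well, and 2 had an unadjusted p under 0.05, beside 1.36% of all genes called.

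The ranges of kd and ctrl libraries did not overlap in 4 of 7 tested members at 48 h, 6 of 8 at 72 h and 5 of 8 at 240 h, and such separation was found in 41.6%, 65.2% and 53.1% of all tested genes. The median log2 fold change of the tested members was -0.17, -0.09 and -0.14 in the 3 comparisons, beside 0.01 over all tested genes in each. The pseudocount of 0.1 FPKM shrinks the change of genes whose FPKM is near or below it, among them Lef1, Nkd1 and Cdx1, so percentages of the control mean and limma voom on whole reads are given beside the fold changes. Limma voom called 3 members at 48 h, 4 at 72 h and 3 at 240 h, where it called 9.22%, 22.6% and 18% of all tested genes.

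**Figure D1:**
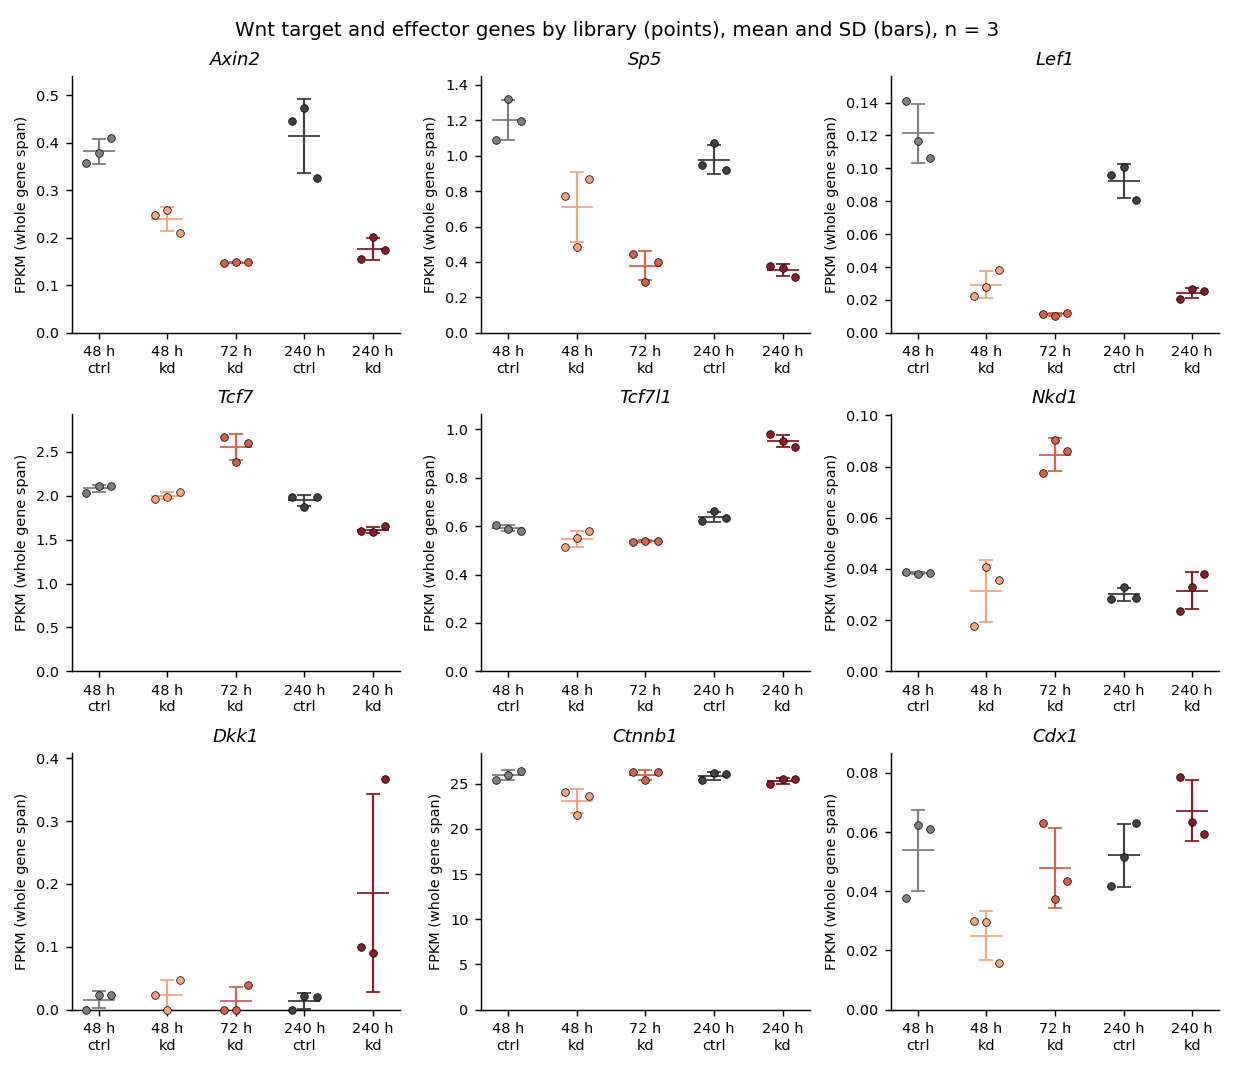
FPKM over the whole gene span (y axis, linear) of the 9 members in the 5 groups (x axis); points are libraries, horizontal marks the mean and error bars the SD (n = 3). Axin2, Sp5 and Lef1 are lower in all kd libraries than in all ctrl libraries, Nkd1 is highest at 72 h kd and Tcf7l1 at 240 h kd.

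Axin2 (ENSMUSG00000000142.15, mm10 chr11:108920349-108950783, plus strand) encodes a scaffold of the β-catenin destruction complex and is itself switched on by Wnt signalling, as a negative feedback. The 48 h ctrl libraries had 0.357, 0.379 and 0.409 FPKM, and the 48 h kd libraries 0.248, 0.258 and 0.211. The 72 h kd libraries lay within a narrow range, at 0.146, 0.149 and 0.148 FPKM. At 240 h the control libraries had 0.446, 0.472 and 0.326 FPKM and the kd libraries 0.155, 0.201 and 0.174. Every kd library was below every ctrl library of either time, and the 3 kd groups did not overlap with each other. The group means thus fell in the order 240 h ctrl, 48 h ctrl, 48 h kd, 240 h kd and 72 h kd, and only the 2 control groups overlapped as neighbours in this order.

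Relative to control, Axin2 stood at 62.6% after 48 h of knockdown, then at 38.7% (72 h) and at 42.6% (240 h). Limma gave a log2 fold change of -0.51 ± 0.08 (SE) at 48 h (limma adjusted p = 0.00786), which is short of the fold threshold, so that Axin2 was not called there. It was called at 72 h, with -0.96 ± 0.05 (limma adjusted p = 5.43e-05), and at 240 h, with -0.89 ± 0.13 (limma adjusted p = 0.00286). Voom on reads gave -0.67, -1.35 and -1.21 and called all 3, and a pseudocount of 0.01 FPKM gave -0.66 at 48 h, which was called. Between 48 h and 72 h of knockdown Axin2 decreased further, to 61.9% of its 48 h kd mean (log2 fold change -0.45 ± 0.06, limma adjusted p = 0.00394), again below the fold threshold. The antisense gene Gm11670 lies within Axin2 and had 1 to 10 reads per library, and without them Axin2 was at 64.1%, 38.8% and 40.8% of control.

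Sp5 (ENSMUSG00000075304.2, mm10 chr2:70474923-70477729, plus strand) encodes a zinc finger transcription factor and is a direct Wnt target; its window above holds the TCF/LEF core. It is a short gene with 10 to 42 reads per library and no overlapping gene. The 48 h ctrl libraries had 1.09, 1.32 and 1.2 FPKM and the 48 h kd libraries 0.773, 0.486 and 0.869. At 72 h kd the values were 0.445, 0.288 and 0.402 FPKM. At 240 h they were 0.945, 1.07 and 0.919 FPKM in ctrl and 0.378, 0.368 and 0.314 in kd. All kd libraries were below all ctrl libraries, the 72 h and 240 h kd groups overlapped, and 48 h kd lay between these and the controls without touching either.

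Sp5 was at 59.0% of control after 48 h of knockdown, 31.5% after 72 h and 36.1% after 240 h. The log2 fold changes were -1.45 ± 0.14 at 72 h (limma adjusted p = 0.000315) and -1.25 ± 0.09 at 240 h (limma adjusted p = 0.000175), and both calls were kept in all 6 fits that left out 1 library. At 48 h it was -0.71 ± 0.19 (limma adjusted p = 0.0468), a call held by a narrow margin. This call was lost without 48 h ctrl replicate 1, 2 or 3 (log2 fold change -0.78, -0.65 and -0.72; limma adjusted p = 0.0854, 0.141 and 0.122) and without 48 h kd replicate 1 (-0.78; limma adjusted p = 0.0724). Without 48 h kd replicate 2, the lowest of its group and the library with the largest mitochondrial share, the change was -0.50 (limma adjusted p = 0.0264). Voom on reads gave -0.78 at 48 h and called it (limma voom adjusted p = 0.0292).

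Lef1 (ENSMUSG00000027985.14, mm10 chr3:131110471-131224356, plus strand) encodes a TCF/LEF factor that is also a Wnt target. As a percentage of control and by voom it had the deepest decrease of the tested members in each comparison, while on the log2(FPKM + 0.1) scale Sp5 was lower at 72 h and Sp5 and Axin2 at 240 h. The span of Lef1 is long, and its libraries held 220, 147 and 137 reads in the 48 h controls against 29, 37 and 48 after knockdown, or 0.141, 0.116 and 0.106 against 0.0221, 0.0277 and 0.0381 FPKM. In 72 h kd 17, 14 and 18 reads were left. At 240 h the libraries had 136, 141 and 118 reads in ctrl and 31, 44 and 39 in kd. The kd and ctrl libraries were far apart at each time, 72 h kd lay below all other groups, and 48 h kd and 240 h kd overlapped.

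In FPKM, Lef1 was at 24.2% of control at 48 h, 9.22% at 72 h and 26.1% at 240 h. On the log2(FPKM + 0.1) scale this gave -0.77 ± 0.07, -0.99 ± 0.06 and -0.63 ± 0.05, with limma adjusted p = 0.00164, 6.13e-05 and 0.000203. Voom on reads, which has no such pseudocount, gave -2.08 ± 0.20, -3.41 ± 0.23 and -1.92 ± 0.17. From 72 h to 240 h of knockdown Lef1 was higher again, at 216% of its 72 h kd mean, a step called by voom, as were 25.4% of all genes (1.09 ± 0.24, limma voom adjusted p = 0.000289) and, at 0.16 ± 0.03 on the log2(FPKM + 0.1) scale (limma adjusted p = 0.00241), short of the fold threshold. The gene Lef1os1 covers the start of Lef1, and its reads cannot be told apart from those of Lef1 in the shared stretch. Lef1os1 had 24 to 47 reads per library in the 48 h controls against 2 to 3 in 72 h kd. With all reads of Lef1os1 taken off, Lef1 was at 22.8%, 9.64% and 26.1% of control. Lef1os1 reaches beyond Lef1, so some of these reads may lie outside Lef1.

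**Figure D2:**
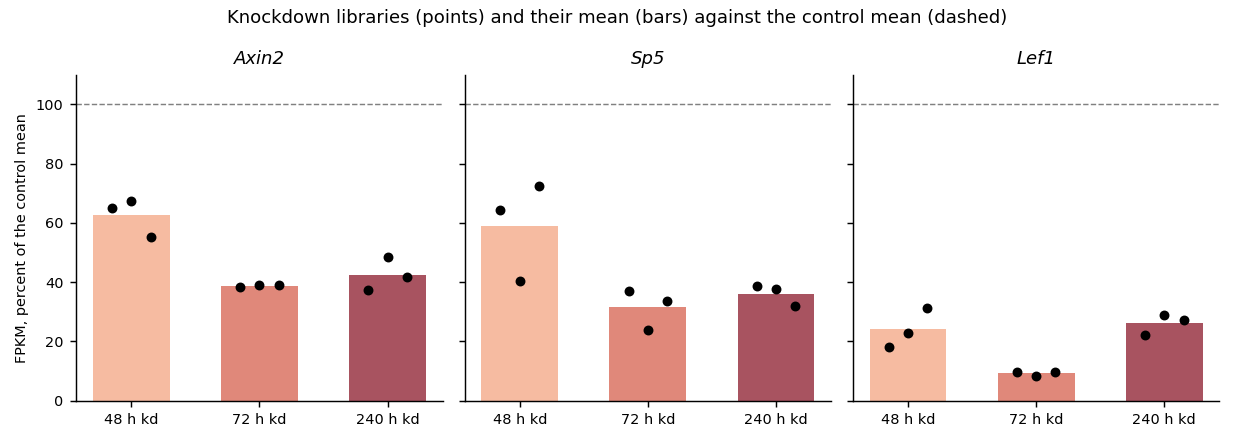
FPKM of Axin2, Sp5 and Lef1 in each kd library (points) and their mean (bars), as a percent of the control mean (dashed line at 100; 48 h ctrl for 48 h and 72 h kd, 240 h ctrl for 240 h kd), n = 3. Every kd library lies below the control mean, from 8.21% for a Lef1 library at 72 h to 72.3% for an Sp5 library at 48 h.

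Tcf7 (mm10 chr11:52252371-52283331) encodes TCF1, which among the TCF/LEF factors is mostly an activator. Its libraries had 2.04, 2.11 and 2.11 FPKM in 48 h ctrl, 1.96, 1.99 and 2.04 in 48 h kd, and 2.67, 2.38 and 2.61 in 72 h kd. At 240 h they had 1.99, 1.88 and 1.98 FPKM in ctrl and 1.60, 1.58 and 1.65 in kd. The 72 h kd libraries were the highest and the 240 h kd libraries the lowest of all 15, without overlap to their controls. Against control this was 95.9% at 48 h, 123% at 72 h (log2 fold change 0.28 ± 0.05, limma adjusted p = 0.00458) and 82.8% at 240 h (-0.26 ± 0.05, limma adjusted p = 0.00673), all within the fold threshold. Between 72 h and 240 h of knockdown Tcf7 fell to 63.1% (log2 fold change -0.63 ± 0.05, limma adjusted p = 0.000174), one of 2 members called in this comparison, in which 15.2% of all tested genes were called. Over all genes this comparison had 1095 higher and 1426 lower calls, and 2091 higher and 1546 lower after rescaling each library to the same FPKM sum. Centring on the median and the same rescaling each gave -0.58, just short of the threshold. The overlapping gene A630014C17Rik had 50 to 121 reads per library, and with all of them taken off Tcf7 was at 95.1%, 121% and 85.5% of control. A630014C17Rik reaches beyond Tcf7, so some of these reads may lie outside Tcf7.

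Tcf7l1 (ENSMUSG00000055799.13, mm10 chr6:72626378-72789254, minus strand) encodes the TCF/LEF factor named above as a repressor, and its level was higher late in the knockdown. The 48 h ctrl libraries had 0.604, 0.590 and 0.579 FPKM, the 48 h kd libraries 0.514, 0.550 and 0.579 and the 72 h kd libraries 0.534, 0.539 and 0.541. At 240 h the control libraries had 0.622, 0.661 and 0.635 FPKM and the kd libraries 0.980, 0.952 and 0.927. All 3 libraries of 240 h kd were above the other 12, which lay between 0.514 and 0.661 FPKM. As a share of control Tcf7l1 was at 92.7% (48 h), 91.0% (72 h) and 149% (240 h).

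The log2 fold change of Tcf7l1 was -0.09 ± 0.07 at 48 h (limma adjusted p = 0.356) and 0.51 ± 0.06 at 240 h (limma adjusted p = 0.000981), the latter below the fold threshold by limma and, at 0.57, also by voom. The difference between the 240 h and the 48 h effect was itself tested in 1 fit of the 4 groups concerned. It was 0.60 ± 0.08 for Tcf7l1 (limma adjusted p = 0.000387), and Tcf7l1 was the only one of 8 tested members called there, against 6.85% of all tested genes. Without 48 h kd replicate 1 the difference was 0.57, under the threshold (limma adjusted p = 0.00103). From 72 h to 240 h of knockdown Tcf7l1 rose to 177% (log2 fold change 0.72 ± 0.05, limma adjusted p = 8.14e-05). The antisense gene Gm15401 lies within Tcf7l1 and rose as well, with a mean of 365 reads in 240 h ctrl and 603 in 240 h kd; without its reads Tcf7l1 stood at 94.7%, 88.6% and 149% of control.

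Ctnnb1 (ENSMUSG00000006932.17, mm10 chr9:120929216-120960507, plus strand), the gene of β-catenin, was the most abundant member per base of span. The controls averaged 25.9 ± 0.547 FPKM at 48 h and 25.9 ± 0.442 at 240 h, and the kd groups 23.1 ± 1.36, 26.0 ± 0.559 and 25.3 ± 0.338 at 48 h, 72 h and 240 h. The 48 h kd libraries, at 24, 21.5 and 23.6 FPKM, were the lowest of all, and the other 4 groups overlapped as neighbours. The log2 fold change was -0.17 ± 0.05 at 48 h (limma adjusted p = 0.0722), 0.00 ± 0.03 at 72 h (limma adjusted p = 0.931) and -0.03 ± 0.03 at 240 h (limma adjusted p = 0.485). Ctnnb1 overlaps Ulk4, whose span took in 5852 to 8106 reads per library, and reads in the shared stretch may have been counted for both. These are RNA levels, and the amount of β-catenin protein, which the pathway controls, was not measured in these libraries.

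Nkd1 (ENSMUSG00000031661.12, mm10 chr8:88521354-88594884, plus strand) encodes Naked1, an inhibitor that binds Dishevelled and is switched on by Wnt signalling. It had 39, 31 and 32 reads in 48 h ctrl, 15, 35 and 29 in 48 h kd and 73, 82 and 84 in 72 h kd. At 240 h it had 26, 30 and 27 reads in ctrl and 23, 35 and 38 in kd. The 72 h kd libraries stood above the other 12, and the kd and ctrl libraries overlapped at 48 h and 240 h. Nkd1 was at 81.6% of control at 48 h, 221% at 72 h and 105% at 240 h. At 72 h the log2 fold change was 0.42 ± 0.03 (limma adjusted p = 0.000181), below the fold threshold on the log2(FPKM + 0.1) scale because 0.1 exceeds its FPKM of 0.0384 and 0.0846, and voom gave 1.12 ± 0.17 and called it (limma voom adjusted p = 3.83e-06). Nkd1 thus differed in direction at 72 h from Axin2, Sp5 and Lef1, which fell in the same libraries.

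Between 48 h and 72 h of knockdown, where 7.17% of all tested genes were called, Sp5 was the only one of 7 tested members called, with -0.74 ± 0.22 (limma adjusted p = 0.0403). That call was lost without 48 h kd replicate 1 or 3 (-0.67 and -0.59; limma adjusted p = 0.101 and 0.109) and without 72 h kd replicate 1, 2 or 3 (-0.84, -0.60 and -0.78; limma adjusted p = 0.0624, 0.112 and 0.0854). Voom called 4 members in this comparison, Axin2, Sp5 and Lef1 lower and Nkd1 higher, and 13% of all tested genes.

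Dkk1 (ENSMUSG00000024868.8, mm10 chr19:30545863-30549665, minus strand) encodes a secreted antagonist that binds the LRP co-receptors. It was hardly detected: both control groups held 0, 1 and 1 reads, the 48 h kd group 1, 0 and 2, and the 72 h kd group 0, 0 and 2. In 240 h kd there were 5, 5 and 19 reads. All 3 of these were above all other libraries, and 19 of the 29 reads came from 240 h kd replicate 3. Summed over libraries and scaled to depth, the 29 reads were 13.2 times the 2 reads of 240 h ctrl (95% exact counting interval 3.33 to 114, which covers counting error only). Dkk1 was below the minimum of 10 reads and entered no test; with no minimum its log2 fold change at 240 h was 1.2 (limma adjusted p = 0.116). With 3 libraries against 3, the smallest p of an exact permutation test is 0.1.

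Cdx1 (ENSMUSG00000024619.8, mm10 chr18:61018862-61036199, minus strand) encodes a caudal-type homeobox factor of the posterior embryo and a direct Wnt target. The controls held 9, 12 and 12 reads at 48 h and 9, 11 and 14 at 240 h. The kd libraries held 6, 6 and 3 reads at 48 h, then 14, 8 and 10 at 72 h, and 18, 16 and 14 at 240 h. The 48 h kd libraries were the lowest of all, and the other groups overlapped as neighbours in the order of their means. At 48 h Cdx1 was below the minimum, and its summed reads were 0.478 times those of control (95% exact counting interval 0.241 to 0.906); with no minimum the limma adjusted p was 0.170. At 72 h and 240 h the log2 fold changes were -0.06 ± 0.09 and 0.14 ± 0.07 (limma adjusted p = 0.620 and 0.153). The difference between the 240 h and the 48 h effect was 0.43 ± 0.11 (limma adjusted p = 0.0223), below the fold threshold, and 1.36 ± 0.47 by voom, which called it and 10.4% of all genes. Cdx1 passed the read minimum of this fit only with the 240 h kd libraries, in which it was highest.

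**Figure D3:**
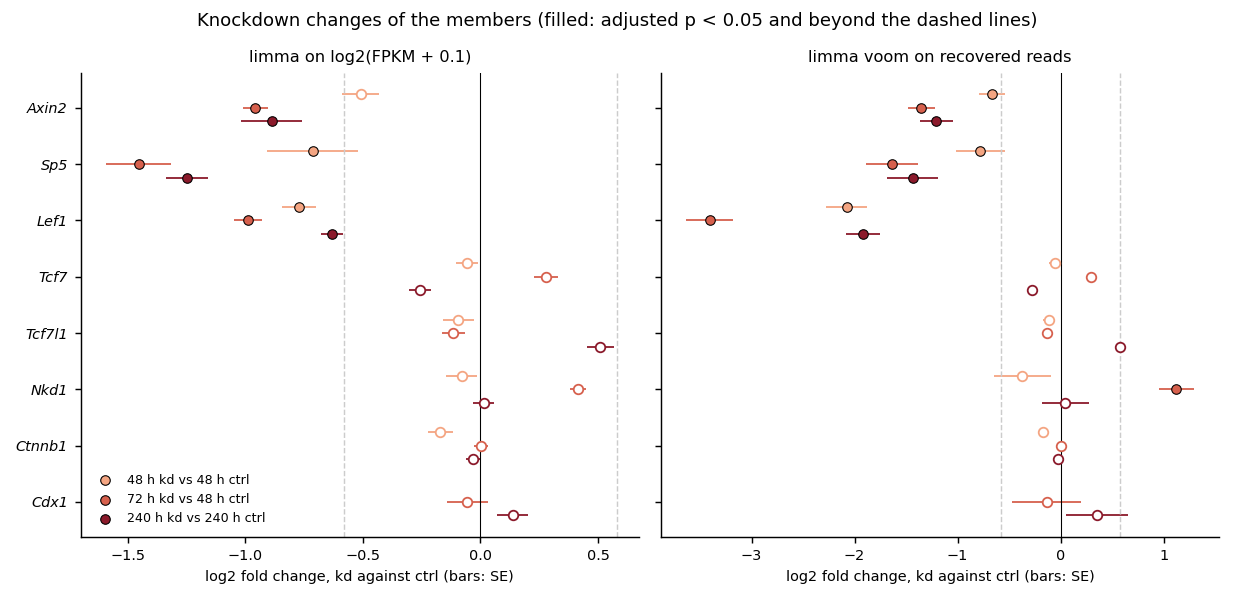
Log2 fold changes (x axis) of 8 members (y axis) in the 3 kd against ctrl comparisons, from limma on log2(FPKM + 0.1) (left) and limma voom on reads (right, a wider axis); bars are SE, filled points are called and dashed lines mark the fold threshold. Axin2, Sp5 and Lef1 lie on the left in every comparison, and Lef1 at 72 h moves from -0.99 to -3.41 between the panels. Dkk1 had too few reads, and Cdx1 is missing at 48 h.

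The other genes of the pathway were followed in 8 lists with 126 genes beside the members. At 48 h, 11 of 97 tested genes were called (5 higher, 6 lower), at 72 h 23 of 98 (12 higher, 11 lower) and at 240 h 30 of 102 (14 higher, 16 lower). These counts include Rspo4 and Tbx6 at 72 h and Wnt3, Wnt8a and Cdx2 at 240 h, which passed the read minimum only through the kd libraries in which they were high. Over all tested genes 4.47%, 13.7% and 9.96% were called, and the counts of each list below are to be read against these shares. The lists were chosen with earlier results of these data known, so an excess over these shares is no test of the lists. The median log2 fold change over the lists was -0.04, -0.01 and -0.03. Several named genes of the lists overlap other genes, among them Fzd5, Kremen2, Sfrp2, Dact1, Bmp4 and Tbx3, and no reads were taken off for them.

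Of the 19 Wnt ligands, 7 were tested at 48 h and 72 h and 10 at 240 h. Wnt9a was called higher at 72 h, with 0.0591 ± 0.0112 FPKM in 48 h ctrl and 0.149 ± 0.0160 in 72 h kd (log2 fold change 0.65 ± 0.07, limma adjusted p = 0.000521). Wnt3, needed for gastrulation in the mouse, and Wnt8a were called higher at 240 h. Wnt3 had 10, 9 and 8 reads in the 240 h controls against 35, 48 and 56 after knockdown, or 466% of control (log2 fold change 0.60 ± 0.07, limma adjusted p = 0.00109). Wnt8a had 5, 5 and 4 reads against 40, 27 and 40, or 699% of control (1.71 ± 0.16, limma adjusted p = 0.000452). The 240 h controls of Wnt3 and Wnt8a averaged under 10 reads, so that both entered the test only through the kd libraries in which they were high. Of the R-spondins, which enhance Wnt signals at the receptor, Rspo1 was called higher at all 3 times, at 198%, 214% and 181% of control, and Rspo4 at 72 h, at 341%. Rspo4, too, averaged under 10 reads in its controls and passed the minimum only through the kd libraries. It had 6, 7 and 16 reads in 48 h ctrl, an uneven base for the percentage, and 34, 27 and 48 in 72 h kd.

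The receptors went both ways. Fzd2 was called higher at 48 h, 72 h and 240 h, with control means of 4.11 and 3.53 FPKM at 48 h and 240 h and kd means of 6.80, 10.1 and 7.07 FPKM. Fzd10 was called higher at 72 h and 240 h, at 164% and 175% of control, and Fzd1 at 240 h, with 20, 12 and 6 reads in ctrl and 43, 38 and 27 in kd. Fzd5, the most abundant of the named Frizzled genes, was called lower at 240 h, from 28.4 ± 0.686 to 18.5 ± 0.512 FPKM (-0.62 ± 0.04, limma adjusted p = 8.93e-05), and Fzd4 lower at 72 h, at 59.4% of control.

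Of the 14 secreted inhibitors, 9 were tested, and 1, 5 and 6 were called at the 3 times, beside 4.47%, 13.7% and 9.96% of all genes. Notum encodes a secreted enzyme that removes the lipid from Wnt proteins and is itself a feedback target of the pathway. Its controls were at 7.67 ± 0.230 and 9.31 ± 0.488 FPKM at 48 h and 240 h, and its kd groups at 6.61 ± 0.979, 3.27 ± 0.162 and 2.35 ± 0.239. Notum was not called at 48 h (-0.22 ± 0.10, limma adjusted p = 0.178) and fell to 42.6% of control at 72 h (-1.21 ± 0.05, limma adjusted p = 1.59e-05) and to 25.3% at 240 h (-1.94 ± 0.08, limma adjusted p = 2.69e-05). It overlaps the antisense genes Myadml2os and Notumos, whose reads in the shared stretches cannot be told apart from its own. Dkk3 was called lower at all 3 times, at 38.8%, 46.7% and 35.6% of control, Sfrp5 lower at 72 h, at 48.3%, and Kremen2, a co-receptor of Dkk1, lower at 240 h, at 42.3%.

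Sfrp1 and Sfrp2 encode decoy receptors for Wnt ligands, and they parted at 240 h. Sfrp1 was at 144% of control at 48 h (below the fold threshold), was called higher at 72 h, at 202% (1.00 ± 0.03, limma adjusted p = 1.02e-05), and lower at 240 h, at 59.5% (-0.73 ± 0.05, limma adjusted p = 0.000122). Its controls were at 4.33 ± 0.114 and 4.58 ± 0.235 FPKM (48 h and 240 h), while the 72 h kd group was at 8.77 ± 0.139 and the 240 h kd group at 2.73 ± 0.0491. Sfrp2 was called higher at 72 h and 240 h, at 202% and 195% of control.

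**Figure D4:**
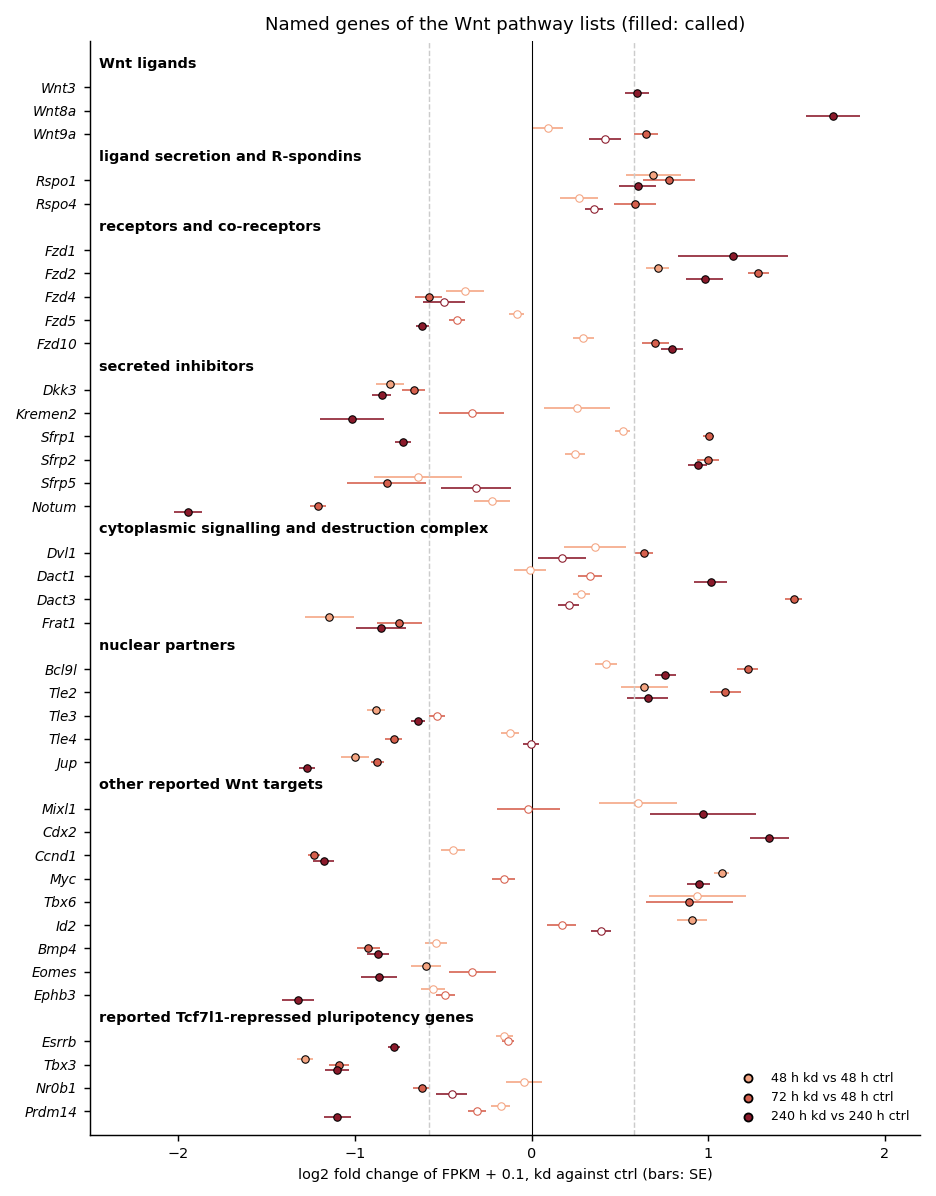
Log2 fold changes of FPKM + 0.1 (x axis) for the named genes of the 8 Wnt pathway lists (y axis, grouped by role) in the 3 kd against ctrl comparisons; bars are SE, filled points are called and dashed lines mark the fold threshold. Notum reaches -1.94 at 240 h, Sfrp1 lies at 1.00 at 72 h and at -0.73 at 240 h, and Jup, Tbx3, Dkk3 and Frat1 are called lower at all 3 times. Genes without a point were below the read minimum in that comparison.

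Within the cytoplasmic signalling and destruction complex list all 22 genes were tested, and 1, 3 and 2 were called, which is close to the 4.47%, 13.7% and 9.96% called over all genes. Frat1, an inhibitor of GSK3 and so an activator of the pathway, was called lower at all 3 times, at 43.5%, 58.2% and 52.9% of control. Dvl1 (156%) and Dact3 (293%; 1.48 ± 0.05, limma adjusted p = 1.02e-05) were called higher at 72 h, Dvl1 no longer after centring on the median (0.57) or removal of the GC and span trend (0.47), and Dact1 (215%) at 240 h; the Dact proteins bind Dishevelled. Among the 18 nuclear partners, Jup, the gene of plakoglobin, a close relative of β-catenin, was called lower at all 3 times, from 4.99 ± 0.126 FPKM in 48 h ctrl to 2.46 ± 0.254 and 2.68 ± 0.0745 in 48 h and 72 h kd and from 5.49 ± 0.240 to 2.22 ± 0.0693 at 240 h. Of the Groucho-type corepressors, Tle3 was called lower at 48 h and 240 h, Tle4 lower at 72 h and Tle2 higher at all 3 times, and Bcl9l, a partner of β-catenin, was called higher at 72 h and 240 h, at 258% and 179% of control.

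Of 19 other reported Wnt targets, 3 of 13 tested were called at 48 h, 3 of 14 at 72 h and 8 of 13 at 240 h, beside 4.47%, 13.7% and 9.96% of all genes. Ccnd1, the gene of cyclin D1, had 25.8 ± 0.871 FPKM in the 48 h controls against 19.0 ± 1.5 and 10.9 ± 0.175 after 48 h and 72 h of knockdown, and 26.4 ± 1.67 against 11.6 ± 0.639 at 240 h. Its log2 fold change was -0.44 ± 0.07, -1.23 ± 0.03 and -1.18 ± 0.06 (limma adjusted p = 0.00719, 6.84e-06 and 5.84e-05), called at 72 h and 240 h; LTO1 overlaps it. Bmp4 was called lower at 72 h and 240 h, at 51.9% and 54.1% of control, Ephb3 at 240 h, at 37.1%, and Eomes at 48 h and 240 h, at 60.2% and 48.4%. Eomes overlaps the antisense gene Gm33460, which averaged 28.7 reads in 240 h ctrl and 6.67 in 240 h kd, against 64.7 and 34.3 for Eomes. These reads were not taken off. Myc was called higher at 48 h and 240 h, at 212% and 193%, and was at 89.7% at 72 h (limma adjusted p = 0.0799). Id2 was called higher at 48 h (188%), Tbx6 at 72 h (262%, with controls likewise under the read minimum) and Mixl1 (232%) and Cdx2 (469%) at 240 h; the reads of Cdx2 went from 4, 8 and 5 in the 240 h controls, under the minimum, to 28, 32 and 28 in the kd libraries through which it entered the test.

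Of 8 pluripotency genes reported as repressed by Tcf7l1, 1, 2 and 3 were called at the 3 times, all lower, beside 2.35%, 5.61% and 4.75% of all genes called lower. Tbx3 was called lower at all 3 times, from 5.96 ± 0.143 FPKM in 48 h ctrl to 2.39 ± 0.0804 and 2.75 ± 0.207 and from 8.24 ± 0.360 to 3.79 ± 0.319 at 240 h. Nr0b1 was called lower at 72 h, at 64.8% of control. At 240 h Esrrb was at 57.6% (-0.78 ± 0.03, limma adjusted p = 3.71e-05) and Prdm14 at 44.7% (-1.10 ± 0.08, limma adjusted p = 0.000151), while both were short of the fold threshold at 48 h and 72 h. A link between these genes and the level of Tcf7l1 was not tested.

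**Figure D5:**
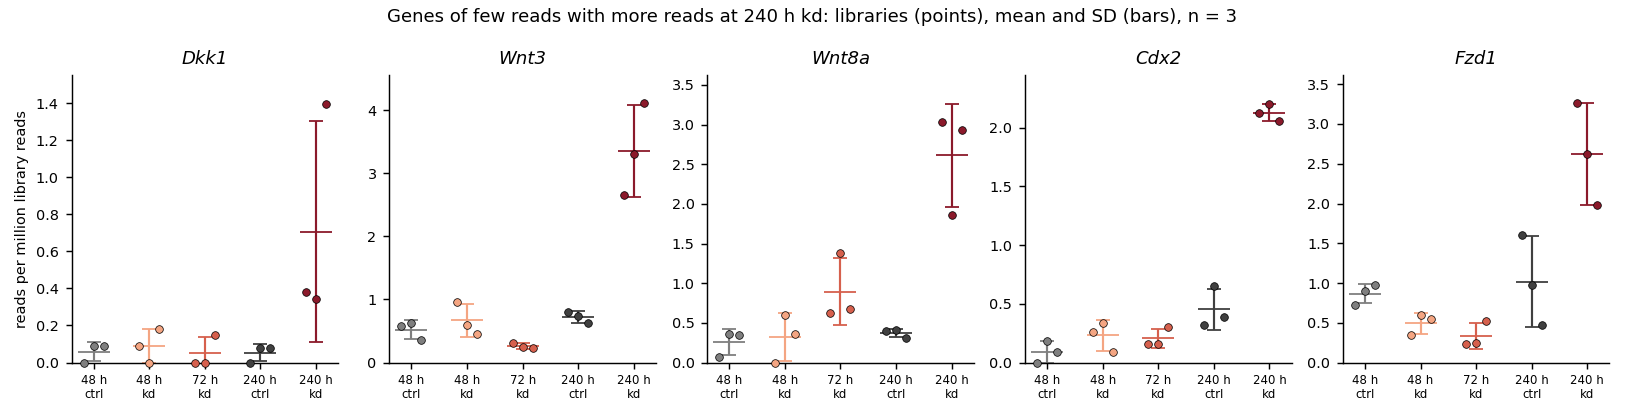
Reads scaled to the library total (y axis, linear) of Dkk1, Wnt3, Wnt8a, Cdx2 and Fzd1 in the 5 groups (x axis); points are libraries, horizontal marks the mean and error bars the SD (n = 3). The genes were put side by side after their values were seen, because in each the 3 libraries of 240 h kd lie above all others.

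Markers of other cell types moved with the kd groups. The 7 trophoblast markers summed to between 9.90 and 12.4 FPKM in the controls, between 7.85 and 8.71 after 48 h of knockdown, between 20.1 and 21.2 after 72 h and to 23.0 in each library after 240 h. Tfap2c made up most of the 72 h sum, while at 240 h Krt8 and Krt18 were also higher, at 3.42 and 6.78 FPKM against 1.38 and 1.70 in 240 h ctrl, and Elf5 stayed at or under 0.00459 FPKM in all libraries. The list holds Cdx2, which is also among the Wnt targets. The 7 neural progenitor markers summed to between 7.45 and 8.71 FPKM in the controls, and to 13.2 to 14.9, 17 to 18.8 and 20.0 to 21.3 FPKM after 48 h, 72 h and 240 h of knockdown. Sox1 was at 4.69, 11.7 and 15.8 FPKM in 48 h ctrl, 48 h kd and 72 h kd and at 5.23 and 15.5 in 240 h ctrl and kd. Nes went the other way at 48 h and 72 h (2.86, 2.09 and 2.02 FPKM) and was higher at 240 h (2.74 against 4.32), and so did Pax6 (0.400, 0.144 and 0.117 FPKM, then 0.282 against 0.339). Neurog1 was at 0.416 FPKM in 240 h kd against 0.0948. Olig2 was lower in each kd group, at 0.0594, 0.0182 and 0 FPKM in 48 h ctrl, 48 h kd and 72 h kd and at 0.0147 in 240 h kd against 0.133. The 6 primitive endoderm markers summed to 0.578 to 0.596 FPKM in the 48 h controls, 0.243 to 0.327 after 48 h and 0.155 to 0.244 after 72 h of knockdown, and to 0.768 to 0.804 against 0.564 to 0.694 at 240 h. Sox7 was at 0.437, 0.128 and 0.0404 FPKM in 48 h ctrl, 48 h kd and 72 h kd and 0.569 against 0.248 at 240 h, where the other 5 markers of this list were higher in kd than in ctrl (Gata6, for example, 0.0847 against 0.0390 FPKM). The 7 fibroblast markers summed to 0.859 to 0.976 FPKM in the 240 h controls and 1.37 to 1.58 after 240 h of knockdown, where Col1a1 was at 0.923 FPKM against 0.261 and Thy1 at 0.452 against 0.646, with Dcn at or under 0.00229 FPKM throughout. The part of such markers in the changes of the members and of Wnt3, Wnt8a, Cdx2 and Fzd1 was not tested, and in these bulk libraries fewer cells with a transcript and less of it per cell cannot be told apart.

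The 72 h calls of 6 named genes depended on the control group. With 240 h ctrl in place of 48 h ctrl the log2 fold change was -0.33 for Fzd4, 0.50 for Fzd10, -0.54 for Frat1, 0.37 for Tbx6 (limma adjusted p = 0.146) and -0.52 for Nr0b1, and these 5 were not called, while Tle3 (-0.54 against 48 h ctrl) was called with -0.58. Tle3 was also called after centring on the median (-0.60) and after removal of the GC and span trend (-0.61). With both control groups together Fzd4 (-0.46) and Nr0b1 (-0.57) were not called.

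After removal of the GC and span trend Wnt9a (0.52), Rspo4 (0.46) and Fzd4 (-0.55) at 72 h and Rspo1 at 240 h (0.56) were not called, and Rspo4 was not called after centring on the median (0.52). With no read minimum, Rspo1 and Tle2 at 48 h, Sfrp5 and Tbx6 at 72 h and Fzd1 and Mixl1 at 240 h were not called (limma adjusted p = 0.128, 0.107, 0.0762, 0.0841, 0.103 and 0.142), nor was Sp5 at 48 h (limma adjusted p = 0.146).

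Some calls of low genes were lost when 1 library was left out, in part with a fold change still beyond the threshold and in part below it. Without 240 h kd replicate 3, Wnt3 was at a log2 fold change of 0.53. Rspo1 lost its 48 h call without 48 h ctrl replicate 2 or 3 or any 48 h kd library (0.56 to 0.74; limma adjusted p between 0.0529 and 0.0895) and its 240 h call without 240 h ctrl replicate 2 or 240 h kd replicate 1 or 3 (0.51, 0.57 and 0.56). Rspo4 at 72 h was at 0.51, 0.55 and 0.49 without 48 h ctrl replicate 1 or 2 or 72 h kd replicate 3. Fzd1 at 240 h was at 1.16, 0.99 and 1.13 (limma adjusted p = 0.0764, 0.0896 and 0.0793) without 240 h ctrl replicate 2 or 240 h kd replicate 1 or 2. Fzd4 at 72 h was at -0.56, -0.55 and -0.53 without 48 h ctrl replicate 1 or 3 or 72 h kd replicate 3, and Sfrp5 at -0.65 (limma adjusted p = 0.0567) without 72 h kd replicate 3. Tle2 lost its 48 h call without 48 h kd replicate 2 (0.48) or any 48 h ctrl library (0.66, 0.60 and 0.65; limma adjusted p = 0.0556, 0.0742 and 0.0652) and its 240 h call without 240 h ctrl replicate 3 (0.55). Mixl1 kept its call in 1 of 6 fits (log2 fold change 0.65 to 1.11, limma adjusted p between 0.0582 and 0.127 without each library but 240 h ctrl replicate 1). Tbx6 lost it without 48 h ctrl replicate 2 or 3 (0.74 and 0.82; limma adjusted p = 0.0653 and 0.0669), and Eomes at 48 h without 48 h ctrl replicate 1 or 48 h kd replicate 2 (-0.54 and -0.57).

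The genes whose log2(FPKM + 0.1) over the 15 libraries was most like that of the 3 lowered members were searched among 11159 to 11160 genes averaging 50 or more reads. For Axin2 they were Atp2a3, Dpysl3 and Ncam1 (Pearson r = 0.973, 0.972 and 0.968), for Sp5 Klf5 and Urah (0.972 and 0.960) and for Lef1 Hdgfl3, Arrb1 and Ddah1 (0.982, 0.979 and 0.978). The libraries form 5 groups, so that these values describe mostly the likeness of 5 group means. Dpysl3, for example, had group means of 0.767, 0.296, 0.114, 0.826 and 0.158 FPKM in 48 h ctrl, 48 h kd, 72 h kd, 240 h ctrl and 240 h kd, the same order as Axin2.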

How the data were processed

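RNA was measured in 15 libraries of the 81K1 line. The authors aligned single-end reads with STAR 2.7.0c to mm10 and counted them per gene in R 4.0.3, and their own tests used DESeq2 1.30.0. The deposited FPKM values were made by the authors per library total and per whole gene span, introns included. The annotation release behind these values is not given in the sources used here, while the paper names a GENCODE release for assigning ChIP-seq peaks to genes. Multiplied back by span and total, 100% of the values in every library came out as whole reads (tolerance 0.001). The recovered reads summed over genes exceeded the library total in every library, so some reads were counted for several genes. Whether reads were counted without regard to strand was not tested.

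Groups and replicate numbers came from the labels. Limma 3.58.1 (R 4.3.3, empirical Bayes with trend) was run on log2(FPKM + 0.1) with genes of at least 10 mean reads, on the compared groups only, with Benjamini-Hochberg adjustment over all tested genes, an adjusted p threshold of 0.05 and a log2 fold change threshold of 0.58. As FPKM are not counts, limma voom on recovered reads was an alternative, as were other pseudocounts (1 and 0.01 FPKM), minimums (none, 0.5 FPKM), scalings, fits and a replicate block. An alternative that took out the dependence on GC (from GENCODE M21 transcripts) and span was chosen after seeing the data. On simulated data, limma recovered 95.5%, 96.5% and 98.5% of 200 genes changed 2-fold in the 48 h, 72 h and 240 h comparisons, among 16216, 16353 and 16512 genes. The changed genes were drawn only from genes with at least 50 expected reads and 0.5 FPKM, with the same low spread for all genes. Axin2, Sp5, Lef1, Nkd1, Dkk1 and Cdx1 lie below these limits, so the recovery does not hold for them.

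The members and lists were chosen with earlier results of these data known. Named are the 9 members, Smarcb1, the called genes of the 8 pathway lists whose groups do not overlap (at most 5 per list and comparison) and the 3 genes most correlated with each lowered member, without predicted or overlapping genes. One of the genes correlated with Sp5 is not reported here. Promoter sequences are from RefSeq (GRCm38.p6).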

Additional observations from a re-analysis of the deposited data

Results flagged for a closer look

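For 12 named genes the effect of the knockdown at 240 h differed from that at 48 h by a test of the difference itself (limma, 240 h effect minus 48 h effect on the log2 scale, called as above). Among the members this was Tcf7l1, with a difference of 0.60 (adjusted p = 0.000387). The difference was positive for Wnt8a (1.65, limma adjusted p = 0.00815), Fzd1 (1.64, limma adjusted p = 0.0120), Dact1 (1.02, limma adjusted p = 0.000531) and Sfrp2 (0.69, limma adjusted p = 0.000177). It was negative for Notum (-1.72, limma adjusted p = 2.36e-05), Kremen2 (-1.27, limma adjusted p = 0.0111), Sfrp1 (-1.24, limma adjusted p = 8.64e-07) and Prdm14 (-0.92, limma adjusted p = 9.44e-05). It was also negative for Ephb3 (-0.76, limma adjusted p = 0.00108), Ccnd1 (-0.73, limma adjusted p = 0.000476) and Esrrb (-0.62, limma adjusted p = 3.99e-05). Wnt8a and Fzd1 were below the read minimum in the 48 h comparison alone and entered this fit only through the 240 h kd libraries in which they were high. The call of Wnt8a was lost with a pseudocount of 0.01 FPKM (limma adjusted p = 0.105) and after rescaling (limma adjusted p = 0.0775).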

How the results depend on the processing

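Of 1002 values of the members under all alternatives, 932 kept their side of the threshold, 31 lost it, 39 gained it and 0 changed sign while called. In the order 48 h, 72 h, 240 h, 72 h kd against 48 h kd, 240 h kd against 72 h kd and 240 h effect minus 48 h effect, the members called were 2, 3, 3, 1, 2 and 1. With the adjusted p alone, 5 were called at 72 h and at 240 h, and 6, 4 and 3 in the last 3 comparisons. A pseudocount of 1 FPKM left 0, 1, 0, 0, 0 and 0, and one of 0.01 FPKM gave 4, 4 and 2 in the last 3. A minimum of 0.5 FPKM, which removes Axin2, Lef1, Nkd1 and Cdx1, left 0, 1, 1 and 0 in the first 4. No minimum left 1 at 48 h and 0 at 72 h kd against 48 h kd, since more genes were tested. Centring left 1 at 48 h and 1 at 240 h kd against 72 h kd, and removal of the GC and span trend, which could not be computed for Tcf7, left 1 in the latter. Rescaling to the same FPKM sum gave 3 at 72 h kd against 48 h kd and 2 in the difference of effects. Voom gave 4, 4 and 2 in the last 3 comparisons. Where no value shows the cause of such a change, the cause was not tested. Leaving out 1 library gave 1 to 2 at 48 h, 0 to 1 at 72 h kd against 48 h kd and 0 to 2 in the difference of effects, with 0 without 48 h kd replicate 1 and 2 without 48 h kd replicate 2.

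Of the pathway list genes, 11, 23, 30, 9, 18 and 13 were called in the same order, and 0 between the control groups. With the adjusted p alone the counts were 29, 66, 60, 47, 65 and 29, and 5 between controls. A pseudocount of 1 FPKM gave 7, 12 and 16 at the 3 times, 5 at 240 h kd against 72 h kd and 6 in the difference of effects, and 0.01 FPKM gave 15 at 72 h kd against 48 h kd. A minimum of 0.5 FPKM gave 7 and 15 at 48 h and 72 h and 11 at 240 h kd against 72 h kd. Rescaling to the same FPKM sum gave 18 at 48 h, 18 at 72 h kd against 48 h kd and 1 between controls, and voom gave 18 at 48 h and 19 at 72 h kd against 48 h kd.

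Over all genes 720, 2215 and 1656 were called at the 3 times. Voom called 1485, 3642 and 2998, a pseudocount of 1 FPKM 188, 684 and 520, and the adjusted p alone 3225, 9148 and 6403. At 48 h and 240 h, 0.01 FPKM gave 1271 and 2594, a minimum of 0.5 FPKM 456 and 1016, and rescaling 1233 and 2551. The replicate numbers showed no clear pairing of the libraries. Deviations of same-numbered libraries correlated between -0.259 and 0.235 and exceeded 0.1 for all 3 numbers in no comparison. With 3 libraries per group these values cannot exclude a pairing. With the replicate block, the other named genes lost 5 calls and gained 2 over all comparisons, and the 48 h call of Rspo1 was among those lost (limma adjusted p = 0.0562). In the same fits 1 member was called at 48 h, where Sp5 had a limma adjusted p of 0.0988, and the 67 genes called between the control groups became 0. These 67 also became 0 in each of the 6 fits without 1 library, and 278 (253 higher, 25 lower) after rescaling. Of the members, Dkk1 and Cdx1 had the fewest reads, with 0 to 19 and 3 to 18 per library.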
